A study of Mus musculus with 12 samples.

Results

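Loss of the upstream regulatory element of Spi1 was examined in cells that carry an Mdmx transgene, by comparing 3 Mdmx-Tg/Pu.1-URE-/- libraries with 3 Mdmx-Tg libraries, which are 6 of the 12 libraries of the study. The libraries were chosen by their genotype labels. Every library was made from polyA RNA of bone marrow cells sorted by flow cytometry as Lin- Sca-1+ Kit+ and Flk2-, the compartment that holds mouse blood stem cells. Mdmx-Tg/Pu.1-URE-/- cells, called the double mutant here, carry the transgene and lack both copies of the element. Mdmx-Tg cells carry the same transgene with the element intact. Both groups therefore share the extra MDMX, and the comparison has no group free of it. The same element loss without the transgene, 3 Pu.1-URE-/- libraries against 3 Wild-type libraries, is used beside it. The labels give neither the promoter of the transgene nor the age of the animals, and each of the 12 libraries has its own number in its description without a statement that it came from a separate animal. The p-values therefore measure the spread between these libraries.

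Spi1 encodes PU.1, an ETS-family transcription factor that drives myeloid and B lymphoid development, and its upstream element maintains its expression in stem cells and myeloid progenitors. Reduced PU.1 blocks normal myeloid maturation and predisposes mice to acute myeloid leukaemia. Mdm4 encodes MDMX, which binds and inhibits p53. Granulocyte precursors first make azurophil granules, loaded with myeloperoxidase and serine proteases, and later make specific and gelatinase granules with antimicrobial proteins such as cathelicidin and lactoferrin.

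Depth was even, at 47271286 to 53630091 estimated reads per library, with 12836 to 13694 genes at 10 reads or more. Levels below are counts per 1000000 reads scaled by TMM factors (CPM), which allow a gene to be compared between libraries but not with other genes. On log2 CPM the libraries correlated at 0.876 to 0.892 within the double mutant, at 0.848 to 0.857 within Mdmx-Tg, and at 0.788 to 0.829 between the genotypes. The genes of the gate were present in all 6. Kit was at 240, 165 and 261 CPM in the double mutant and at 277, 270 and 325 CPM in Mdmx-Tg. Ly6a, the gene of Sca-1, was at 57.9, 41.9 and 58.2 CPM against 43.1, 85.2 and 65.4 CPM, and neither gene passed the test (edgeR adjusted p = 0.351 for Kit and 0.857 for Ly6a). Flt3, the gene of Flk2, was at 53.7, 35.6 and 50.1 CPM in the double mutant against 5.82, 19.8 and 22.2 CPM in Mdmx-Tg (adjusted p = 0.223), so that the groups did not overlap at RNA level in cells gated as low for its protein. Summed Y-linked genes were at 205 and 211 counts per 1000000 reads in double mutant libraries 1 and 3 and at 3.15 to 4.92 in the 4 others. Sex was therefore unbalanced between the genotypes, and a fit with Y-linked expression as a covariate is given beside some of the counts it moves. That fit also called no member of the G2/M, glycolysis, Wnt or NF-kappaB lists below. Of the monocyte and macrophage markers it called 1 higher and 1 lower.

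Spi1 itself was low in the double mutant. Its gene level (chr2:91082390-91115756, plus strand, GRCm38) was 3.48, 1.84 and 0.0198 CPM in the double mutant against 21.6, 13.5 and 3.69 CPM in Mdmx-Tg. Every double mutant library was below every Mdmx-Tg library, yet the highest and lowest Mdmx-Tg libraries differed more than the groups' nearest values. The log2 change was -2.86 ± 1.27 (SE) and did not pass the test (edgeR quasi-likelihood test, Benjamini-Hochberg adjusted p = 0.285). One transcript separated the groups further. Spi1-202, a noncoding transcript of 2 exons that starts upstream of the main coding transcript (chr2:91082408-91090310), had 0 estimated reads in all 3 double mutant libraries, against 213.3, 320.9 and 105.0 estimated reads in the Mdmx-Tg libraries. It also had 0 reads in the 3 Pu.1-URE-/- libraries, against 53 to 65.5 estimated reads in Wild-type. Whether Spi1-202 overlaps the deleted element was not tested, so its 0 reads are not shown to be a change in expression. The main coding transcript Spi1-201 had 157.6, 99.0 and 1.0 estimated reads in the double mutant against 814.8, 338.4 and 98.6 in Mdmx-Tg, so that the groups overlapped by 1 library. Without the transgene Spi1-201 had 414.1, 496.0 and 1143.1 estimated reads in Pu.1-URE-/- against 1537.0, 233.8 and 407.6 in Wild-type, with overlapping ranges. The gene level includes Spi1-202, which in Mdmx-Tg 3 held 105.0 estimated reads against 98.6 of Spi1-201. The lack of overlap at gene level is therefore not one of coding RNA alone. Salmon divides reads between transcripts that share exons, so transcript values carry more error than gene values.

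Mdm4 was high in both groups. Its gene level was 353, 163 and 210 CPM in the double mutant against 535, 414 and 163 CPM in Mdmx-Tg, with overlapping ranges (log2 change -0.61 ± 0.45, edgeR adjusted p = 0.557). One transcript, Mdm4-201, held 12128.2, 4476.9 and 5742.4 estimated reads in the double mutant and 22274.1, 16388.7 and 6451.7 in Mdmx-Tg. In the libraries without the transgene it had 145.2, 142.6 and 0.0 estimated reads (Pu.1-URE-/-) and 105.8, 0.0 and 0.0 estimated reads (Wild-type). Every library labelled as transgenic thus held far more of this transcript than any library without the transgene, and the library with the most in each group was replicate 1.

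**Figure D1:**
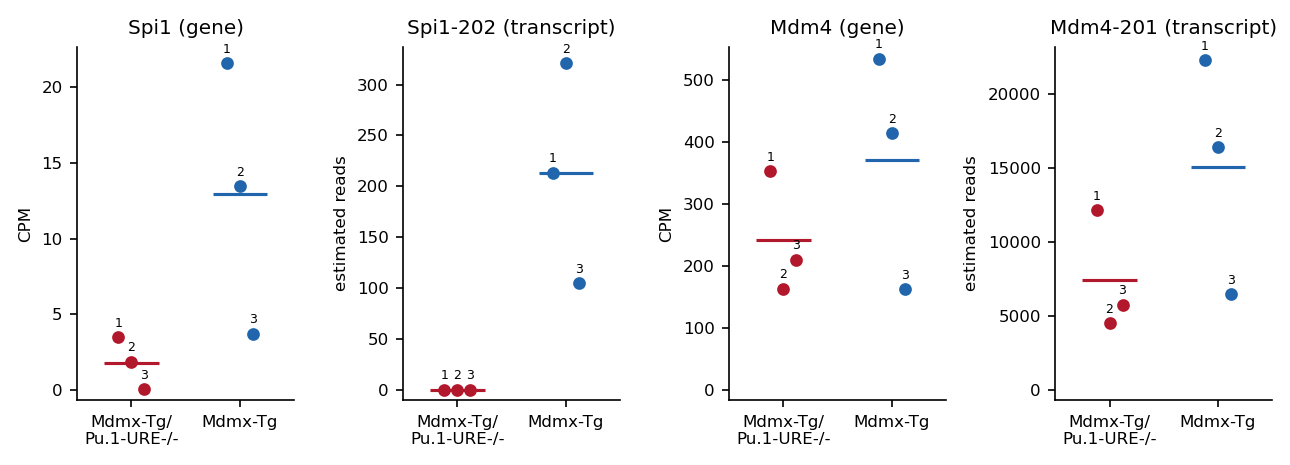
Levels of the 2 targeted genes and of their transcripts in each library, double mutant left and Mdmx-Tg right. Vertical axes are CPM for genes and estimated reads for transcripts, each starting at 0. Points are libraries numbered by replicate and lines are means of 3. Spi1-202 is at 0 reads in every double mutant library and at 105.0 reads or more in every Mdmx-Tg library, while Mdm4 overlaps.

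The double mutant differed from Mdmx-Tg most visibly in granule genes of granulocytes, which were high in the double mutant, and in a smaller number of genes that were low, among them the stem cell gene Tek, the thromboxane synthase gene Tbxas1 and the ligand gene Gdf3. Of 15027 genes tested, 349 were called (2.32%; adjusted p under 0.05). There were 252 genes called higher in the double mutant (1.68%) and 97 called lower (0.646%). Without adjustment, 16.9% of genes had a p under 0.05. All 349 had 3 double mutant values that did not overlap the 3 Mdmx-Tg values, as did 19.2% of all genes tested. The median log2 change over all genes tested was 0.03. Of the genes called higher, 55 had no read in any Mdmx-Tg library, and 18 of those called lower had no read in any double mutant library. The calls depended on the libraries in the fit: 136 genes were called without double mutant 1, 180 without double mutant 3, 164 without Mdmx-Tg 1, 202 without Mdmx-Tg 2 and 213 without Pu.1-URE-/- 3. With Y-linked expression as a covariate 95 genes were called, 93 of them among the 349. DESeq2 called 1295 genes, 755 higher and 540 lower. Its list counts below therefore stand against a larger share of all genes than those of edgeR. All lists were written with earlier results of these data known, so the share of a list called is a description. In sorted bulk cells, a change in the number of cells that express a gene and a change in RNA per cell cannot be told apart, and this holds for every result below.

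**Figure D2:**
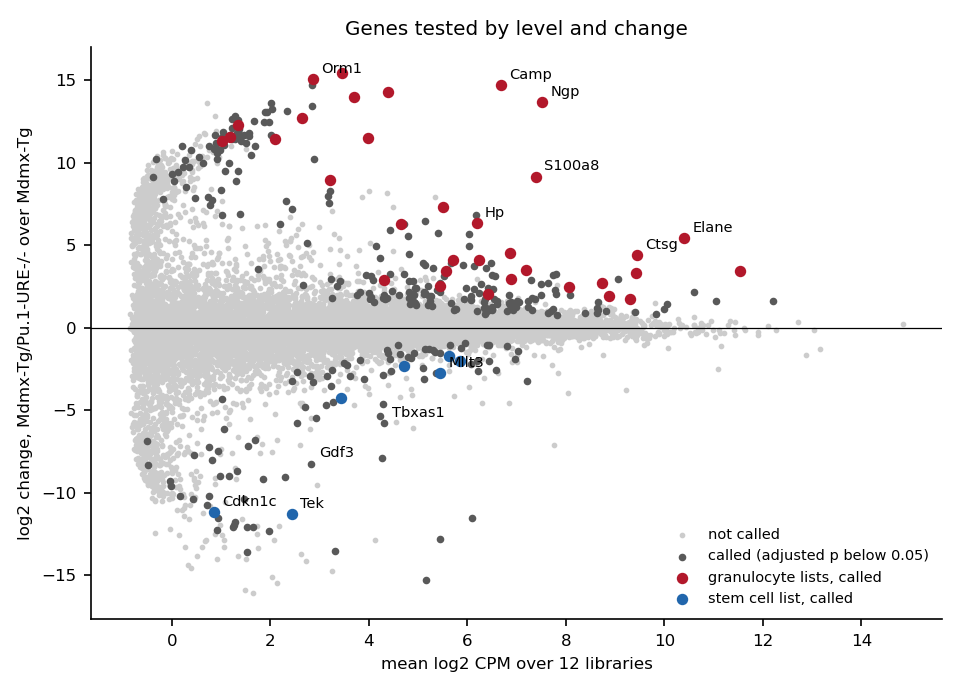
Log2 change of the double mutant over Mdmx-Tg (vertical axis) against mean log2 CPM over 12 libraries (horizontal axis) for the 15027 genes tested. Grey points were not called, dark points were called, red points are called members of the 3 granulocyte lists and blue points are called members of the stem cell list. Red points lie above 0, with Camp at 14.71, and blue points lie below 0, with Tek at -11.32.

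Genes of the first granulocyte stage rose broadly. Of 26 azurophil granule and granulocyte-monocyte progenitor genes, all tested, 16 were called higher and none lower, against a background of 1.68% called higher, and 24 had a log2 change above 0. The list's median log2 change was 2.61, against 0.03 over all genes tested. Elane (chr10:79886247-79888215), which encodes neutrophil elastase, was at 11931, 4287 and 4682 CPM in the double mutant against 121, 138 and 226 CPM in Mdmx-Tg. The lowest double mutant library was thus far above the highest Mdmx-Tg library, and the fold was 43.2 (log2 change 5.43 ± 0.54, edgeR adjusted p = 0.000659). Ctsg, the protease cathepsin G, was at 4345, 1705 and 2682 CPM against 87.8, 165 and 162 CPM in Mdmx-Tg, a fold of 21.1 (log2 change 4.40 ± 0.46, adjusted p = 0.000915). Hp, haptoglobin, which binds free haemoglobin, was at 741, 395 and 399 CPM against 4.77, 4.20 and 10.01 CPM, a fold of 80.8 (log2 change 6.34 ± 0.55, adjusted p = 0.000379). In Elane, Ctsg and Hp, double mutant library 1 was the highest of its group, and no library of either group reached the range of the other. Cst7, an inhibitor of cysteine proteases, was 17.5-fold higher (adjusted p = 0.00111), with 137 to 294 CPM in the double mutant and 9.23 to 14.5 CPM in Mdmx-Tg. Mpo, myeloperoxidase, named after its values were seen, was at 10979, 3168 and 8457 CPM against 509, 510 and 1098 CPM (fold 10.7, adjusted p = 0.00824). The list summed to 41667, 16984 and 25429 CPM in the double mutant and to 3548, 4270 and 4068 CPM in Mdmx-Tg. The count of 16 became 8 with the Y-linked covariate, 9 without Mdmx-Tg 1, 10 without double mutant 1, and 10 without both Mdmx-Tg 2 and double mutant 3, the libraries with the fewest detected genes in their groups.

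Genes of the later granule stages were almost absent in Mdmx-Tg and abundant in the double mutant. Of 20 specific and gelatinase granule genes listed, 14 could be tested. Of those, 9 were called higher (64.3%, against 1.68% of all genes) and none lower. The median of the fitted log2 changes of the 14 was 11.40, or 9.06 with genes lacking reads in a group set at their bound. A gene absent from Mdmx-Tg could be tested only through its level in the double mutant or in the other genotypes. The list summed to 26496, 20767 and 23296 CPM in the double mutant and to 31.1, 61.8 and 22.8 CPM in Mdmx-Tg, with no overlap. Camp (chr9:109847379-109849617), the cathelicidin antimicrobial peptide, was at 9051, 7868 and 7943 CPM against 0.0383, 0.392 and 0.484 CPM in Mdmx-Tg (log2 change 14.71 ± 1.10, edgeR adjusted p = 0.000259). Ngp, neutrophilic granule protein, was at 15112, 11662 and 13962 CPM against 0.0192, 0.745 and 2.28 CPM (log2 change 13.70 ± 1.43, adjusted p = 0.000877). These 2 genes made up most of the list's sum. Cd177, a surface glycoprotein of neutrophils, was at 300, 246 and 332 CPM against 0, 0 and 0.287 CPM (log2 change 11.50 ± 1.27, adjusted p = 0.00120). Lcn2, lipocalin-2, which binds bacterial siderophores, had 8972 reads over the 3 double mutant libraries and 1 read over the Mdmx-Tg libraries, a ratio of 9263 (95% counting interval 1662 to 365918) (adjusted p = 0.00171). Chit1, a chitinase, had 37657 reads against 2, a ratio of 19440 (95% counting interval 5381 to 160525) (adjusted p = 0.000304). Ltf, lactoferrin, named after its values were seen, was low at 6.63, 5.25 and 6.005 CPM in the double mutant and had no read in Mdmx-Tg. It was at least 315-fold higher, taking a floor of 3 reads over the group, and its call did not pass in 9 of the 12 fits that left out a library (adjusted p up to 0.108). Mmp8 and Mmp9, the neutrophil collagenase and gelatinase, and Chil3 had 0 reads in all 6 libraries. The count of 9 higher was 13 in DESeq2, which also called 1 lower. It was 6 without Mdmx-Tg 1, 6 without both Mdmx-Tg 2 and double mutant 3, 5 in limma-voom and 8 with the Y-linked covariate. One called member, BC100530, has near copies among the stefin genes, so its reads are uncertain.

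Secreted and S100 genes of neutrophils behaved alike, though not in every member. Of 22 listed, 20 were tested, 9 were called higher (45.0%, against 1.68% of all genes) and none lower. The median log2 change was 5.08, also with genes lacking reads in a group set at their bound. In this list 4 members, among them Orm1, Mcemp1 and Ly6g, had no read in Mdmx-Tg. Such genes could be tested only through their level in other genotypes and could not come out lower. DESeq2 called 14 higher and 1 lower, and the Y-linked covariate left 7 higher. S100a8, a subunit of calprotectin, was at 3449, 3680 and 2398 CPM in the double mutant against 3.24, 10.4 and 3.08 CPM in Mdmx-Tg (fold 571, log2 change 9.16 ± 0.79, edgeR adjusted p = 0.000379). Its partner S100a9, named after its values were seen, was at 590, 520 and 492 CPM against 0, 6.55 and 0 CPM and missed the threshold (log2 change 7.93 ± 1.88, adjusted p = 0.0554). Orm1, an acute-phase glycoprotein, was at 94.96, 55.6 and 96.5 CPM and had no read in Mdmx-Tg, at least 4330-fold higher (adjusted p = 0.000553). Mcemp1, a membrane protein of mast cells and other myeloid cells, was at 151, 66.1 and 101 CPM with no read in Mdmx-Tg, at least 5568-fold higher (adjusted p = 0.00511). Lrg1, a leucine-rich glycoprotein secreted by neutrophils, had 64106 reads over the double mutant libraries and 3 over the Mdmx-Tg libraries, a ratio of 22062 (95% counting interval 7549 to 106985) (adjusted p = 0.00108). Orm1, Mcemp1 and Lrg1 had 3 reads or fewer in Mdmx-Tg. Retnlg, a resistin-like protein of neutrophils, was at 22.2, 21.4 and 29.9 CPM, and 1 read was counted in Mdmx-Tg, a ratio of 3884 (95% counting interval 696.7 to 153455) (adjusted p = 0.000574). Wfdc21 was at 101, 88.7 and 62.4 CPM in the double mutant, and at 0, 0.510 and 0 CPM in Mdmx-Tg (adjusted p = 0.00415). Ly6g, the surface marker of mature mouse neutrophils, was at 3.96, 7.03 and 10.2 CPM and had no read in Mdmx-Tg (adjusted p = 0.0191). Ly6g belongs to the lineage cocktail commonly used to gate such cells out, and has near copies in the Ly6 family with which reads can be shared. Its call did not pass without Mdmx-Tg 1 (adjusted p = 0.0552), double mutant 1 (0.0514) or double mutant 3 (0.0522).

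Other large rises lay outside the granule lists. Thbs4, a thrombospondin of the extracellular matrix, was at 83.1, 60.8 and 51.7 CPM in the double mutant with no read in Mdmx-Tg, at least 3446-fold higher (edgeR adjusted p = 0.000659). Mgam, a maltase-glucoamylase, was at 38.8, 7.89 and 43.4 CPM with no read in Mdmx-Tg, at least 1563-fold higher (adjusted p = 0.00292). Ednra, an endothelin receptor, was at 36.2, 21.5 and 12.7 CPM with no read in Mdmx-Tg, at least 1239-fold higher (adjusted p = 0.00466). These 3 genes were detected in every double mutant library and in no Mdmx-Tg library. Vcam1, an adhesion molecule listed here with macrophage markers, rose 115-fold, with 1073, 403 and 380 CPM against 3.03, 9.22 and 3.86 CPM (adjusted p = 0.00213). Dtx4, an E3 ubiquitin ligase of the Deltex family, was at 51.4, 18.8 and 15.8 CPM, and 1 read was counted in Mdmx-Tg, a ratio of 4509 (95% counting interval 808.8 to 178126) (adjusted p = 0.0231). The call of Dtx4 did not pass without Mdmx-Tg 1 (adjusted p = 0.0956), Mdmx-Tg 2 (0.0854), Mdmx-Tg 3 (0.0777) or double mutant 1 (0.0712).

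**Figure D3:**
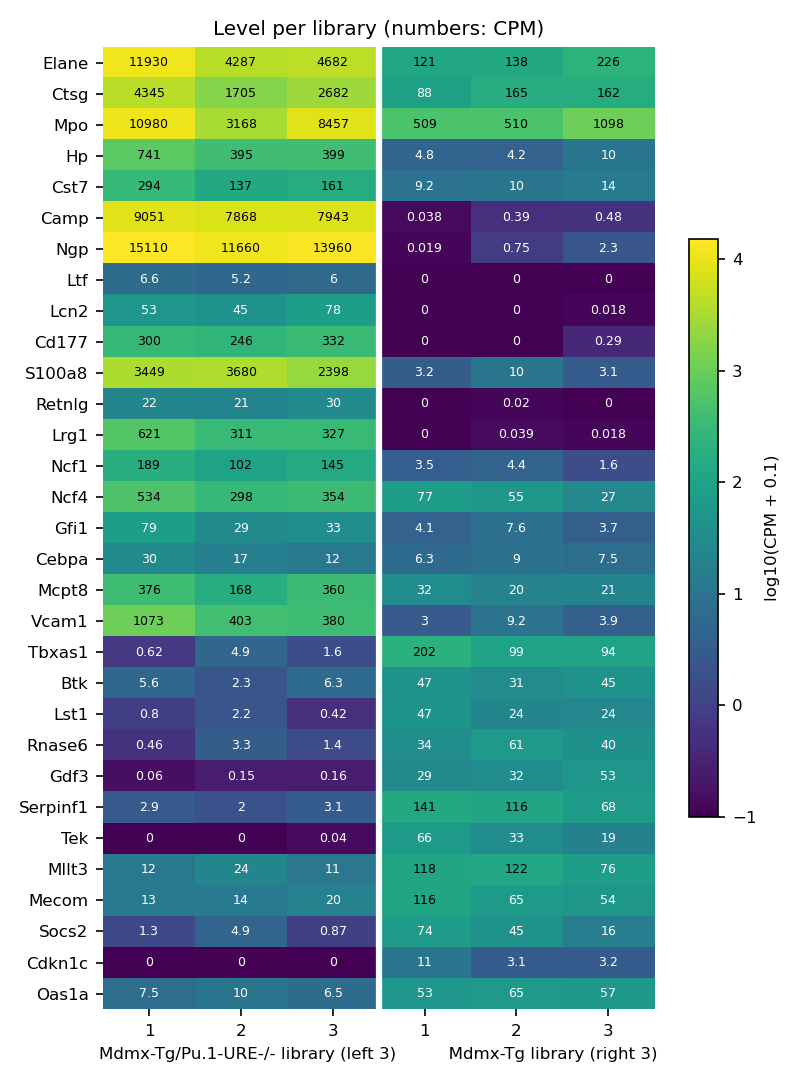
CPM of 31 genes in each library, double mutant in the left 3 columns and Mdmx-Tg in the right 3, coloured by log10(CPM + 0.1) with the CPM written in each cell. Genes at the top are high on the left, such as Camp at 7868 CPM or more against 0.484 CPM or less. Genes at the bottom are high on the right, such as Serpinf1 at 3.09 CPM or less against 67.7 CPM or more.

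Promoter windows of 250 bases before the RefSeq start (GRCm38.p6) are shown for 3 genes that changed by orders of magnitude, to show which of 2 short motifs their sequence holds. The motifs searched on both strands were GAGGAA, the core bound by PU.1 and other ETS factors, and TTGCNNAA, a C/EBP half-site pair. Of all 32851 RefSeq windows, 23.3% held the first, 9.56% the second and 2.07% both. Capitals mark matches, and the 2 matches in Ltf do not overlap. Mcemp1 (chr8:3665512-3665761, plus strand) and Tek (chr4:94739039-94739288, plus strand) held neither motif. Ltf (chr9:111019042-111019291, plus strand), chosen after its match was seen because its window held both, had the ETS-type match starting 157 bases before the start and the C/EBP-type match starting 75 bases before it.
Mcemp1: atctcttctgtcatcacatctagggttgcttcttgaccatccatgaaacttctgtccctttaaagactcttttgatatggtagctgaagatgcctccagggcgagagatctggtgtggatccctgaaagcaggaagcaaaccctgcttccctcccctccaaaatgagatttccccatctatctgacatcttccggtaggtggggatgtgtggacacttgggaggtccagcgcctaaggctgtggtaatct
Ltf: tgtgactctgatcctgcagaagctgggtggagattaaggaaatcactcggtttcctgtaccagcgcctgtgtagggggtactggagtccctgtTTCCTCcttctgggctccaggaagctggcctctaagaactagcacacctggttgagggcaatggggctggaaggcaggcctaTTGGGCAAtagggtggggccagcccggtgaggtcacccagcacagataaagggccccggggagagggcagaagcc
Tek: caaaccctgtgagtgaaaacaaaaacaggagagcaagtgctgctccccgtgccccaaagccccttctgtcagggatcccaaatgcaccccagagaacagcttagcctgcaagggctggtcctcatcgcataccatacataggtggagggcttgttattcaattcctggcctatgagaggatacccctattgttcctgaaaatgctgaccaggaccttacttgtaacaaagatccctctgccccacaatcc
Of the 34 genes of the 3 granulocyte lists called higher, 24 had a window, too few for a share over the lists. Lcn2, Ly6g and Fcgr3, named only because they matched, also held both motifs in a window. The Mcemp1 and Ltf windows run a short way into the annotated gene. Those of Camp, Lrg1 and Lcn2, which run further into theirs, are not shown, and that of Lcn2 lies wholly inside its gene. Camp and Lrg1, chosen like Mcemp1 by the size of their rise, held neither motif. Orm1 and Gdf3 had no window. A match is a description of the letters and not of binding.

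Of 27 granulocyte and monocyte transcription factors tested, 2 were called higher in edgeR (7.41%, against 1.68% of all genes) and none lower, with a median log2 change of -0.12. The count was 6 in DESeq2 and 1 with the Y-linked covariate. It was also 1 without Mdmx-Tg 1, Mdmx-Tg 2, any double mutant library or any Pu.1-URE-/- library, and 3 without Wild-type 2. Gfi1, a repressor needed for neutrophil differentiation, was at 79.1, 29.3 and 33.0 CPM in the double mutant against 4.10, 7.57 and 3.68 CPM in Mdmx-Tg (fold 9.21, log2 change 3.20 ± 0.44, edgeR adjusted p = 0.00416). Id1, an inhibitor of E proteins, was at 9.35, 2.12 and 5.51 CPM and had no read in Mdmx-Tg (at least 295-fold higher, adjusted p = 0.0442). That call passed in only 2 of the 12 fits that left out a library, those without Wild-type 2 and without Wild-type 3, and its adjusted p in the others was 0.0573 to 0.120. Cebpe, the factor of late granule genes, named after its values were seen, was at 261, 184 and 87.9 CPM against 0, 1.55 and 1.77 CPM and just missed the threshold (log2 change 7.32 ± 1.69, adjusted p = 0.0506). Cebpa, which starts the granulocyte programme, was at 29.9, 17.3 and 12.4 CPM against 6.30, 9.04 and 7.48 CPM (log2 change 1.38 ± 0.41, adjusted p = 0.128). The groups did not overlap for either gene. Of 13 ETS family factors tested, edgeR and limma-voom called none and DESeq2 called 1, higher. In edgeR 2 of the 13 had an unadjusted p under 0.05, against 16.9% of all genes. Ets1, with the smallest p of that list, was at 185, 29.3 and 130 CPM against 17.8, 29.8 and 3.69 CPM, with 1 double mutant library inside the Mdmx-Tg range (adjusted p = 0.134).

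Genes listed here as needing PU.1, a list written with earlier results of these data known, moved in both directions. Of 47 tested on that list, 5 were called higher and 5 lower (21.3%, against 2.32% of all genes). The median log2 change was -0.28. The 5 called higher were Clec12a, Ncf1, Ncf4, Fcer1g and Fcgr3. Clec12a, an inhibitory C-type lectin also used as a leukaemia stem cell marker, was at 283, 135 and 249 CPM in the double mutant against 19.9, 18.2 and 11.9 CPM in Mdmx-Tg (fold 13.3, log2 change 3.73 ± 0.42, edgeR adjusted p = 0.00126). Ncf1, a cytosolic subunit of the NADPH oxidase, was at 189, 102 and 145 CPM against 3.47, 4.36 and 1.56 CPM (fold 46.5, log2 change 5.54 ± 0.71, adjusted p = 0.00292). Ncf4, another subunit of it, was at 534, 298 and 354 CPM against 76.6, 54.8 and 27.5 CPM (fold 7.46, log2 change 2.90 ± 0.47, adjusted p = 0.00937). Ncf1 and Ncf4 were the 2 of 6 oxidase subunits called (33.3%, against 1.68% of all genes called higher). A log2 change above 0 was found in 5 of the 6. DESeq2 called 4 oxidase subunits higher, limma-voom called 1, and the Y-linked covariate left 1. For the PU.1-dependent list DESeq2 called 10 higher and 6 lower, and limma-voom 3 and 5. With the Y-linked covariate the list had 2 genes called higher and 2 lower, and without Mdmx-Tg 2 and double mutant 3 it had 2 and 1. Without double mutant 1 there were 3 and 3, and without double mutant 3 or Mdmx-Tg 2 the genes called lower were 2.

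The 5 called lower were Tbxas1, Lst1, Rnase6, Ebi3 and Btk, with log2 changes of -5.79 for Tbxas1 to -3.11 for Btk. Tbxas1, thromboxane A synthase, was at 0.623, 4.93 and 1.57 CPM in the double mutant against 202, 98.8 and 94.5 CPM in Mdmx-Tg, 55.5-fold lower (log2 change -5.79 ± 0.85, edgeR adjusted p = 0.00577). Lst1, a small membrane protein of leukocytes, was at 0.804, 2.18 and 0.416 CPM against 47.2, 23.9 and 24.4 CPM, 28.0-fold lower (adjusted p = 0.00748). Rnase6, an antimicrobial ribonuclease, was at 0.462, 3.29 and 1.41 CPM against 33.9, 60.6 and 40.1 CPM (adjusted p = 0.0194). In Tbxas1, Lst1 and Rnase6, double mutant library 2 kept the highest level of its group. Ebi3, a subunit of interleukins 27 and 35, was at 0.261, 1.47 and 1.84 CPM against 69.4, 61.9 and 25.8 CPM (adjusted p = 0.0314). Btk, the tyrosine kinase of B cell receptor and myeloid signalling, was at 5.63, 2.31 and 6.30 CPM against 46.7, 30.8 and 45.5 CPM (log2 change -3.11 ± 0.67, adjusted p = 0.0372). The call of Rnase6 did not pass without Mdmx-Tg 2 (adjusted p = 0.0526), double mutant 1 (0.0639) or double mutant 3 (0.0880). That of Ebi3 did not pass without Mdmx-Tg 1, Mdmx-Tg 2 or any double mutant library (0.0708 to 0.107), and that of Btk did not pass in 9 of the 12 fits (up to 0.122).

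Among other deep falls, Gdf3, a ligand of the TGF-beta family, was at 0.0603, 0.149 and 0.159 CPM in the double mutant against 28.6, 32.3 and 52.97 CPM in Mdmx-Tg. It was 303-fold lower (log2 change -8.24 ± 0.80, edgeR adjusted p = 0.000653). Serpinf1, a secreted serpin, was at 2.91, 1.95 and 3.09 CPM against 141, 116 and 67.7 CPM, 40.8-fold lower (log2 change -5.35 ± 0.40, adjusted p = 0.000259). Tspan8, a tetraspanin, was 25.01-fold lower (adjusted p = 0.00466), with 1.56 to 5.73 CPM in the double mutant and 89.2 to 129 CPM in Mdmx-Tg. Pcp4l1 was 22.9-fold lower (adjusted p = 0.00287), with 1.00 to 2.42 CPM and 31.8 to 47.0 CPM. These 4 genes kept their calls in each of the 12 fits that left out a library. Cd300a, an inhibitory receptor, was at 0.221, 1.53 and 0.575 CPM against 48.3, 67.3 and 11.1 CPM (adjusted p = 0.0271). Trim47, a RING finger protein, was at 1.07, 4.45 and 1.55 CPM against 39.2, 20.2 and 22.4 CPM (adjusted p = 0.0194). The call of Cd300a did not pass without Mdmx-Tg 1 (0.0653), Mdmx-Tg 2 (0.0685), double mutant 1 (0.107) or double mutant 3 (0.110). That of Trim47 did not pass without Mdmx-Tg 1 (0.0607), double mutant 1 (0.0740) or double mutant 3 (0.0829).

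Several stem cell genes fell in the double mutant, and most others had a negative log2 change that did not pass the test. Of 51 haematopoietic stem cell genes tested, 7 were called lower and none higher, against a background of 0.646% called lower. The log2 change was below 0 in 45, with a median of -1.14. Their sum was 4009, 3149 and 4151 CPM in the double mutant and 7159, 5920 and 4129 CPM in Mdmx-Tg, so that the groups overlapped by 1 library. Cdkn1c, which encodes p57, a brake on the cell cycle in dormant stem cells, had no read in the double mutant against 10.6, 3.08 and 3.17 CPM in Mdmx-Tg, at least 286-fold lower (edgeR adjusted p = 0.00567). Tek, the TIE2 receptor for angiopoietins, was at 0, 0 and 0.0396 CPM (2 reads in all) against 65.6, 33.0 and 19.2 CPM (6176 reads), a ratio of 0.0003343 (95% counting interval 4.048e-05 to 0.001208) (adjusted p = 0.0138). Mllt3, a chromatin reader that maintains stem cells in culture, was at 12.04, 23.9 and 11.3 CPM against 118, 122 and 76.2 CPM (fold 6.69 lower, log2 change -2.74 ± 0.42, adjusted p = 0.00793). Mecom, which encodes the stem cell and leukaemia factor EVI1, was at 13.1, 14.3 and 19.6 CPM against 116, 65.0 and 53.8 CPM (log2 change -2.32 ± 0.41, adjusted p = 0.0162). Also called were Socs2, a feedback inhibitor of cytokine signalling, and Pdzk1ip1, a small membrane protein enriched in stem cells. Ptprc, the gene of the pan-leukocyte antigen CD45, also fell, with 54.0, 40.6 and 43.5 CPM against 226, 216 and 117 CPM (log2 change -2.02 ± 0.26, adjusted p = 0.00292).

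The stem cell count moved widely with the libraries and the test. It was 20 in DESeq2, 2 with the Y-linked covariate, 1 without both Mdmx-Tg 2 and double mutant 3, 2 without double mutant 1, 3 without Mdmx-Tg 1, 4 without Mdmx-Tg 2, 4 without double mutant 3 and 11 without Pu.1-URE-/- 2. Cdkn1c and Mllt3 passed in every fit that left out 1 library. Tek did not pass without double mutant 1 (edgeR adjusted p = 0.0737), double mutant 2 (0.0504) or double mutant 3 (0.0696). Mecom did not pass without Mdmx-Tg 1 (0.0522), double mutant 1 (0.0740) or double mutant 2 (0.0526). Socs2 and Pdzk1ip1 did not pass in 8 and 9 of the 12 fits.

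Markers of other cell types gave few calls in edgeR. Of 21 B and plasma cell markers tested, edgeR called none and DESeq2 called 3 lower. In edgeR 3 of the 21 had an unadjusted p under 0.05, against 16.9% of all genes. The log2 change was below 0 in 20, and the median of the markers was -1.81. They summed to 1748, 33281 and 19897 CPM in the double mutant and to 27023, 54365 and 83995 CPM in Mdmx-Tg. Immunoglobulin genes took 0.144%, 4.39% and 2.5% of reads in the double mutant and 4.16%, 7.79% and 11.9% in Mdmx-Tg. With immunoglobulin genes left out, 360 genes were called. In edgeR no member was called among 29 erythroid genes (median -1.0), 26 megakaryocyte genes (median -0.05), 7 eosinophil genes (median -1.49) or 11 endothelial and stromal markers (median -0.83). At an unadjusted p under 0.05 there were 2 of 29 erythroid, 10 of 26 megakaryocyte, 2 of 7 eosinophil and 4 of 11 endothelial and stromal genes. Over all genes tested that share was 16.9%. DESeq2 called 2 megakaryocyte genes higher and 1 lower, 1 endothelial and stromal marker higher and 1 lower, and none of the erythroid and eosinophil genes. Of 22 monocyte and macrophage markers, Vcam1 and Clec7a were called higher and Ms4a6c lower (13.6%, against 2.32% of all genes). The median was -2.67. Ms4a6c, a membrane protein of monocytes, had 2 reads in the double mutant against 22.3, 24.0 and 15.9 CPM in Mdmx-Tg (3275 reads), a ratio of 0.0006305 (95% counting interval 7.633e-05 to 0.002279) (edgeR adjusted p = 0.00284). Clec7a, the beta-glucan receptor dectin-1, was at 4.68, 9.58 and 7.81 CPM with no read in Mdmx-Tg (adjusted p = 0.0376), a call that passed in 1 of the 12 fits, that without Wild-type 1 (0.0585 to 0.1 in the others).

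In 3 further lists edgeR called 1 gene each, higher. Those are 5.56% of the mast cell list and 5.26% of each of the 2 others, against 1.68% of all genes. Of 18 mast cell and basophil genes, Mcpt8, a basophil protease, was called higher, with 376, 168 and 360 CPM in the double mutant against 32.4, 20.4 and 21.4 CPM in Mdmx-Tg (fold 12.2, log2 change 3.61 ± 0.49, edgeR adjusted p = 0.00387). Of 19 T and NK cell markers, Nkg7, a granule membrane protein that myeloid progenitors also express, was at 3360, 1536 and 2062 CPM against 204, 311 and 191 CPM (fold 9.85, log2 change 3.30 ± 0.44, adjusted p = 0.00338). Cd3e had no read in any of the 6. Of 19 lymphoid priming genes, Ccr9, a chemokine receptor of thymus-seeding and plasmacytoid dendritic cells, was at 34.95, 26.3 and 31.2 CPM against 0.479, 1.30 and 0.879 CPM (log2 change 5.12 ± 0.92, adjusted p = 0.0168). DESeq2 called 4 lymphoid priming genes higher and 3 lower, 3 mast cell and basophil genes higher and 1 lower, and 1 T and NK cell marker in each direction. The call of Ccr9 did not pass without Mdmx-Tg 1 (0.0737), Mdmx-Tg 3 (0.0523) or double mutant 1 (0.0542).

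**Figure D4:**
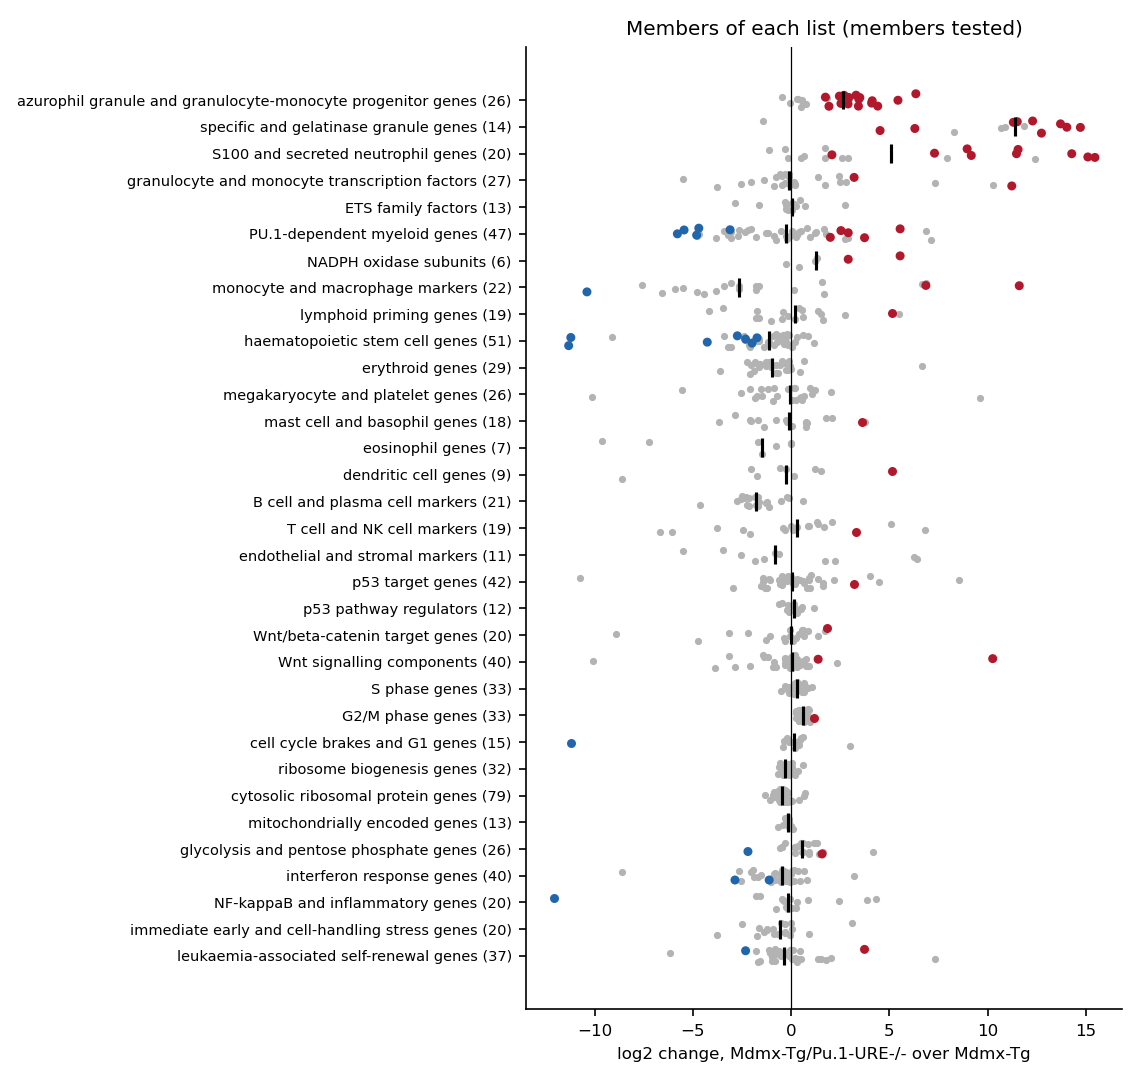
Log2 change of the double mutant over Mdmx-Tg (horizontal axis) for the members tested of each list, with their number in brackets. Red points were called higher, blue points called lower and grey points not called, and the black bar is the list's median. The specific and gelatinase granule genes have the highest median (11.40), and the 33 G2/M genes all lie above 0 with 1 called.

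Few cell cycle and growth genes were called in edgeR. All 33 G2/M genes had a log2 change above 0, with a median of 0.59, but only Cdk1, the mitotic kinase, was called, at 270, 280 and 344 CPM in the double mutant against 104, 160 and 142 CPM in Mdmx-Tg (log2 change 1.14 ± 0.25, edgeR adjusted p = 0.0439). That call passed in 2 of the 12 fits that left out a library, those without Pu.1-URE-/- 2 and without Wild-type 1 (0.0579 to 0.179 in the others). It is 3.03% of the list, against 1.68% of all genes called higher. Of the 33, 11 had an unadjusted p under 0.05, against 16.9% of all genes. The groups did not overlap in 16 of the 33, against 19.2% of all genes. DESeq2 called 2 G2/M genes higher. In edgeR none of 33 S phase genes was called (median 0.28), none of 79 cytosolic ribosomal protein genes (median -0.45, 75 below 0) and none of 32 ribosome biogenesis genes (median -0.30). At an unadjusted p under 0.05 there were 7 of 33 S phase, 15 of 79 ribosomal protein and 2 of 32 ribosome biogenesis genes. Over all genes tested that share was 16.9%. DESeq2 called 1 S phase gene higher, 4 ribosomal protein genes lower and no ribosome biogenesis gene. Over all genes it called 755 higher and 540 lower. Of 26 gene IDs for 25 glycolysis and pentose phosphate symbols, Gpi1, glucose phosphate isomerase, was called higher, with 783, 552 and 510 CPM against 206, 195 and 220 CPM (log2 change 1.57 ± 0.27, adjusted p = 0.0146). Ldhb, a lactate dehydrogenase subunit, was called lower, with 26.2, 38.9 and 49.3 CPM against 220, 190 and 118 CPM (log2 change -2.20 ± 0.40, adjusted p = 0.0171). These calls are 7.69% of the list, against 2.32% of all genes. The list's median was 0.54, and DESeq2 called 5 higher and 1 lower. Gpi1 did not pass without Mdmx-Tg 1 (0.0708), Mdmx-Tg 2 (0.0576) or double mutant 1 (0.0746). Ldhb did not pass without Mdmx-Tg 1 (0.0544), Mdmx-Tg 2 (0.0507), double mutant 1 (0.0712) or double mutant 2 (0.0512).

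Of 42 p53 target genes tested, edgeR called 1, or 2.38%, close to the 2.32% called over all genes, and the median was 0.05. DESeq2 called 4 higher and 1 lower, in a fit that called 1295 genes in all. The gene called in edgeR was Xpc, a DNA damage sensor, with 316, 162 and 252 CPM in the double mutant against 31.2, 20.6 and 27.4 CPM in Mdmx-Tg (fold 9.21, log2 change 3.20 ± 0.34, edgeR adjusted p = 0.000877). In edgeR, of 20 Wnt/beta-catenin targets Plaur, the urokinase receptor, was called higher (adjusted p = 0.0418), and of 40 Wnt components Tle3 and Wnt5b were (adjusted p = 0.0242 and 0.0486), with list medians of 0.01 and 0.02. These calls are 5.0% of each list, against 1.68% of all genes called higher. The calls of Plaur and Wnt5b did not pass in 11 and 12 of the 12 fits that left out a library, and that of Tle3 did not pass in 6. Of 40 interferon response genes, edgeR called 2 lower (5.0%, against 0.646% of all genes), with a median of -0.48, and DESeq2 called 10 lower. The count of 2 was 1 with the Y-linked covariate, 4 without Mdmx-Tg 3, and 1 in the 9 fits that left out any other library except Pu.1-URE-/- 2 and Wild-type 3. Oas1a, an oligoadenylate synthetase of antiviral defence, was at 7.48, 10.2 and 6.54 CPM against 53.4, 64.8 and 57.3 CPM, 7.25-fold lower (log2 change -2.86 ± 0.32, adjusted p = 0.00139). Gbp7, an interferon-induced GTPase, was at 79.9, 72.1 and 101 CPM against 188, 237 and 125 CPM (adjusted p = 0.0439), and its call did not pass in 9 of the 12 fits. Of 20 NF-kappaB and inflammatory genes, edgeR called 1 lower (5.0%, against 0.646% of all genes). That gene, the chemokine Ccl3, had no read in the double mutant against 15.4, 7.16 and 8.46 CPM (at least 529-fold lower, edgeR adjusted p = 0.0415). Its call passed in 1 of the 12 fits, that without Pu.1-URE-/- 2.

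Most genes called after element loss with the transgene were also called without it. The comparison of Pu.1-URE-/- with Wild-type shares no library with that of the double mutant with Mdmx-Tg, though both share 1 estimate of the spread. Its libraries differ in other ways as well. Y-linked genes were at 2.28 to 5.26 counts per 1000000 reads in Pu.1-URE-/- and at 222 in Wild-type 2, against 2.16 and 2.24 in the other Wild-type libraries. Immunoglobulin genes took 0.611% to 3.31% of reads in Pu.1-URE-/- and 33.2%, 11.03% and 0.473% in Wild-type, and their part in this comparison was not tested. The comparison without the transgene called 706 genes (4.7%), 577 higher (3.84%) and 129 lower (0.858%). Of these, 243 were also called in the double mutant over Mdmx-Tg, all in the same direction, 194 higher and 49 lower. They are 69.6% of the 349 and 34.4% of the 706. Of the 106 genes called with the transgene only, 102 had the same sign without it, and of the 463 called without it only, 446 had the same sign with it. The azurophil list had 16 members called higher with the transgene and 18 without it, with median log2 changes of 2.61 and 3.82, and the specific granule list had 9 and 12, with fitted medians of 11.40 and 11.04. The PU.1-dependent list had 5 higher and 5 lower with the transgene, and 14 higher and 7 lower without it. The stem cell list had 7 lower with it and 2 without it, with medians of -1.14 and -1.01. Camp changed by 14.71 and 14.60 on the log2 scale, Elane by 5.43 and 6.22, and Serpinf1 by -5.35 and -3.74.

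The difference between the responses itself passed the edgeR test for no gene. The interaction of transgene and element loss called 0 of 15027 genes in edgeR and 0 in limma-voom, with 870 genes (5.79%) at an unadjusted p under 0.05, while DESeq2 called 194. The smallest interaction p-values in edgeR belonged to Paqr9, Cdkn1c, BC049762, Gpat3, Cebpa and Degs2. Paqr9, of the progestin and adipoQ receptor family, had no read in the double mutant against 4.38, 14.8 and 18.0 CPM in Mdmx-Tg (at least 642-fold lower, adjusted p = 0.00111). Without the transgene its log2 change was -3.51, and the edgeR adjusted p of the interaction was 0.679. Cdkn1c, described above, had a log2 change of -1.30 without the transgene, which did not pass (adjusted p = 0.501), and an adjusted interaction p of 0.679. Cebpa changed more without the transgene. Its log2 change was 1.38 with the transgene and 4.48 without it (adjusted p = 0.128 and 0.000579), with an adjusted interaction p of 0.679. Spi1 changed by -2.86 with the transgene and by -0.31 without it (edgeR adjusted p of the interaction 0.930). None of these differences was called in edgeR after adjustment.

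**Figure D5:**
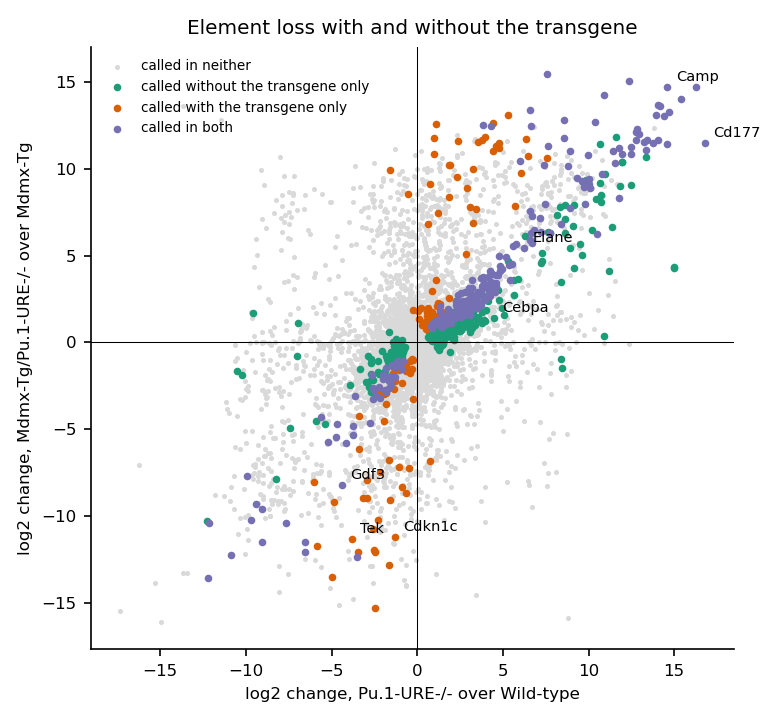
Log2 change after element loss with the transgene (double mutant over Mdmx-Tg, vertical axis) against that without it (Pu.1-URE-/- over Wild-type, horizontal axis) for genes tested in both. Colours show genes called in both, in one or in neither. The 243 genes called in both lie at the upper right and the lower left, and Cebpa lies well to the right, at 4.48 on the horizontal axis and 1.38 on the vertical.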

How the data were processed

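Members and gene lists were chosen with earlier results of these data known. Per the labels' protocols, an RNeasy micro kit was used for RNA of the sorted cells, and sequencing was paired-end on the BGISEQ-500. The submitters' processing notes name FastQC, Salmon, DESeq2, mm10 and GRCm38, and give no version. Per the file headers, the authors deposited 1 Salmon output for each library, with the estimated counts that Salmon assigned to every transcript, not normalized. The deposited TPM values and transcript lengths served for a check and a length offset.

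Of 116248 transcripts, 116072 (99.8%) were matched with GENCODE M21, and the 176 others were dropped. Sums per gene were rounded to whole reads (35.3% of deposited counts were not whole). This gave 20725 genes with a read and 47248522 to 55039035 reads in genes per library. Before the unmatched transcripts were dropped, the libraries held 47271286 to 55067735 estimated reads. Low genes were removed with filterByExpr (at least 10 reads, and 15 in total). The quasi-likelihood test of edgeR 4.0.16 (R 4.3.3, TMM factors, 1 mean per genotype over 12 libraries) was run on 15027 genes, with Benjamini-Hochberg adjustment over all of them and a threshold of 0.05. The ± values of log2 changes are standard errors derived from the F statistic. Fitted changes of genes without reads in a group depend on the prior count, so bounds use a floor of 3 reads over the group and cover counting error only.

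Named genes were Spi1 and Mdm4, the 12 largest called rises and the 12 largest called falls, up to 5 called members of each list with the smallest p, and the 6 smallest p-values of the interaction. The rises and falls had to be protein-coding, to average 2 or more in log2 CPM and to show no overlap of the groups, leaving out predicted and Y-linked genes. Some named genes and markers are not reported here. The text describes a subset, and genes outside the rule are marked as such or are members of the gate list. Results were recomputed in DESeq2 1.42.0 and limma-voom (limma 3.58.1) and with relative log expression scaling, other filters, blocks, a Y-linked covariate and libraries left out. Of these fits, only the edgeR comparison of the double mutant with Mdmx-Tg was tested on simulated data.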

Additional observations from a re-analysis of the deposited data

How the results depend on the processing

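The count of 349 called genes (252 higher, 97 lower) moved with the test, the covariates and the libraries. DESeq2 called 1295 genes (755 higher, 540 lower), Y-linked expression as a covariate left 95 (71 higher, 24 lower), the label number, grouped by its leading digits, as a block left 156 (122 higher, 34 lower), and leaving out Mdmx-Tg 2 and double mutant 3 together left 98 (75 higher, 23 lower). A fit of the 6 compared libraries alone gave 160 genes called higher. Leaving out 1 library gave 136 to 347 genes, 89 to 230 higher and 40 to 117 lower. The replicate block, with numbers that do not pair the libraries (correlations of deviations 0.0315, -0.0292 and -0.0302), gave 62 genes called lower and 206 higher. The interaction stayed at 0 genes except in DESeq2, with 194. Of 62 named genes called, 22 did not pass with the Y-linked covariate and 26 without the pair of libraries, and none changed direction. Prg3, not called, had a log2 change of -7.21, which was -7.82 without Mdmx-Tg 1 and 0 without Mdmx-Tg 3, the library that held its reads. The cause was not tested in any case. Depth limits genes without reads in a group to bounds.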
